A study of Rattus norvegicus with 4 samples.

Results

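The genes described here are 6 classic products of the Sertoli cell: Fshr, Shbg, Clu, Cst3, Aard and Rhox5. They were found on the arrays by gene symbol. A probe set, a group of short array features that report 1 transcript, was taken when the platform annotation gave it a single symbol from this list. This gave 6 of the 31099 probe sets on the array, for 5 of the 6 genes. Clu had 2 probe sets, and Shbg, Cst3, Aard and Rhox5 had 1 each. No probe set carried the symbol Fshr, so the FSH receptor itself was not analysed here.

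The cells were Sertoli cells of 20-day-old male Sprague-Dawley rats, kept in serum-free primary culture for 72 h. In the cAMP group (2 arrays) the cultures received cAMP, with no form or dose stated, and in the control group (2 arrays) they were untreated. Total RNA was labelled with biotin and hybridised to one-colour Affymetrix expression arrays. The labels call the samples biological replicates and do not say whether separate preparations of cells were used, so the p-values cover only the spread among the arrays, part of which may be technical.

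Sertoli cells line the seminiferous tubule and feed the germ cells with secreted proteins. Follicle-stimulating hormone (FSH) binds its receptor, a G protein-coupled receptor that in the testis is found on Sertoli cells, and the stimulatory G protein then raises cAMP, so adding cAMP acts downstream of the receptor. Shbg encodes androgen-binding protein, which carries testosterone in the tubule fluid. Clu encodes clusterin, an extracellular chaperone and a major protein of the Sertoli cell secretion, and Cst3 encodes cystatin C, a secreted inhibitor of cysteine proteases. Aard encodes a protein named for its alanine- and arginine-rich domain. Rhox5 is an X-linked homeobox gene that in mouse Sertoli cells responds to androgen, and it encodes a transcription factor, not a secreted protein.

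The arrays had the same trimmed mean signal, 125, with median signals of 31.3 and 33.7 on the cAMP arrays and 32.9 and 33.7 on the control arrays. The highest of 27 bacterial control probe sets, a signal of 14.2, was taken as background. Actin, whose 3' to 5' signal ratio grows as RNA degrades, had ratios of 1.86 and 1.65 on the cAMP arrays and 1.80 and 2.25 on the control arrays. The same ratio of Gapdh was 0.930 and 0.937 on the cAMP arrays and 0.966 and 0.903 on the control arrays, so control replicate 2 had the highest actin ratio and the lowest Gapdh ratio. Whether these ratios bear on any value given here was not tested. Of 8 Sertoli markers, 6 had a probe set, with summed signals of 11561 and 12536 on the cAMP arrays and 9088 and 9815 on the control arrays, and each of the 6 lay above background on all 4 arrays. The higher sum with cAMP came from Inha, at 4344.6 and 4732.6 with cAMP and 951.6 and 1242.8 in control. In a sum chosen after seeing the data, the 5 markers other than Inha gave 7216.5 and 7803.2 with cAMP and 8136.9 and 8572.0 in control, and Gata4 among them was lower by limma. The 5 Leydig markers summed to between 31.1 and 39.2 with cAMP and between 49.5 and 52.9 in control, with Hsd17b3 at 16.4 and 9.7 with cAMP and 23.3 and 24.3 in control, Insl3 above background on control replicate 1 only, and Cyp17a1, Hsd3b1 and Lhcgr below it on every array. The 4 macrophage markers summed to 48.5 and 63.9 with cAMP and 27.6 and 19.0 in control, with Cd68 at 28.1 and 45.2 with cAMP and 4.1 and 6.2 in control, and with Ptprc and Adgre1 below background on every array. The 2 endothelial markers with a probe set lay at or below background throughout. Of 6 germ cell markers 4 had a probe set; Tnp1 and Prm1, made in spermatids, lay below background on every array, while Sycp3, a meiotic gene, read 2257.7 and 1753.6 with cAMP and 2339.6 and 2298.0 in control. The 5 peritubular myoid markers summed to 156.7 and 199.0 with cAMP and 536.2 and 410.3 in control, a drop that lay mainly in Tagln, at 1.3 and 7.4 with cAMP and 344.5 and 264.3 in control. Des, another of the 5, was higher by limma, at 58.1 and 68.3 with cAMP and 19.7 and 19.5 in control, and Acta2 overlapped between the groups and did not pass. The part of these other cells in the results was not tested.

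The series sets cAMP-treated cells against untreated ones, and the question here is how the secretory products differ. With cAMP, Shbg was higher and Aard lower, each by a modest amount and with an adjusted p just under the threshold of 0.05. Cst3 and both probe sets of Clu did not pass, and Rhox5 was too dim to be tested. Differences are cAMP minus control on the log2(signal + 16) scale, which understates the change of dim genes, and were tested by limma with Benjamini-Hochberg adjustment over all 18625 probe sets above a filter on dim signals. Of the 5 member probe sets tested, 1 was higher and 1 lower, beside 7.29% higher and 6.39% lower of all probe sets tested. In total RNA from cultures, fewer cells of a type and less RNA per cell cannot be told apart.

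**Figure D1:**
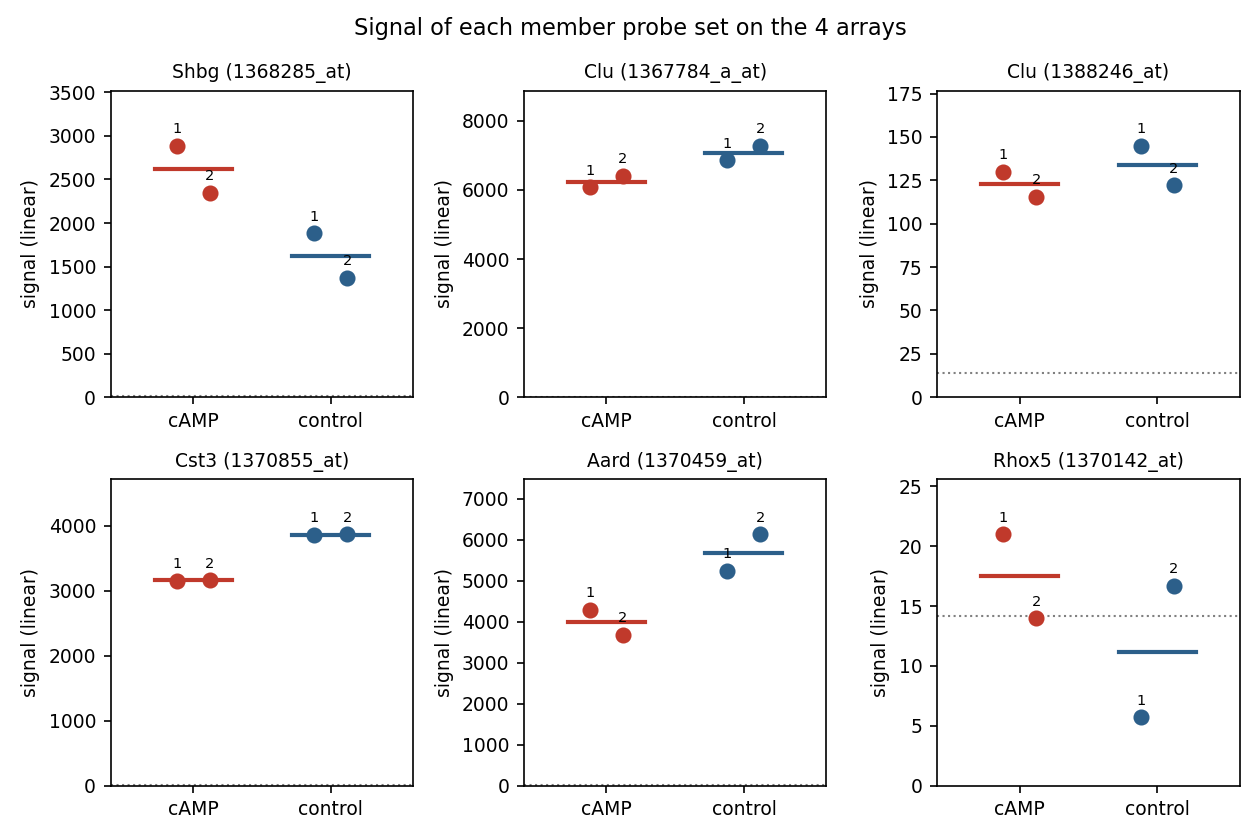
Signal (linear scale, y axis from 0) of the 6 member probe sets on the 2 cAMP and 2 control arrays. Each point is 1 array with its replicate number, bars are group means, and the dotted line is the background of 14.2. The cAMP points lie above the control points for Shbg and below them for Aard, Cst3 and the brighter Clu probe set, and the groups overlap for the dimmer Clu probe set and Rhox5.

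Shbg, the androgen-binding protein gene, was the member that rose. Its probe set read 2886.6 and 2349.9 on cAMP replicates 1 and 2, and 1881.7 and 1369.5 on control replicates 1 and 2. Both cAMP arrays lay above both control arrays. Groups that did not overlap, in one direction or the other, were found for 58.2% of all probe sets tested. In each group the array numbered 1 was the brighter, and the control arrays differed by 31.5% of their mean. The mean was 2618 ± 380 with cAMP and 1626 ± 362 in control (SD, n = 2 arrays each), 1.61 times the control mean. The log2 difference was 0.69 ± 0.18 (SE, 95% interval 0.27 to 1.11), with an adjusted p of 0.0447 by limma. The call was lost without cAMP replicate 1 (log2 difference 0.55), without cAMP replicate 2 (0.84) and without control replicate 2 (0.47). Leaving out either cAMP array lowered the number of calls among all probe sets. A call lost without a cAMP array is thus not particular to Shbg or to other genes below. Without control replicate 2 the number of calls stayed close to that with all arrays. The Shbg call lost there was thus not part of a general drop, and the cause was not tested. Without control replicate 1 the log2 difference of Shbg was 0.92 and the call held.

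The start of Shbg is shown because it belongs to the member that rose, and the series is about basic helix-loop-helix (bHLH) transcription factors, which bind the E-box, CANNTG. The sequence is from RefSeq (build GRCr8, chr10:54834852-54835151, minus strand, 250 bases before to 50 after an annotated transcript start), and the annotated span of the gene reaches further upstream. Capitals mark the E-boxes.
Shbg: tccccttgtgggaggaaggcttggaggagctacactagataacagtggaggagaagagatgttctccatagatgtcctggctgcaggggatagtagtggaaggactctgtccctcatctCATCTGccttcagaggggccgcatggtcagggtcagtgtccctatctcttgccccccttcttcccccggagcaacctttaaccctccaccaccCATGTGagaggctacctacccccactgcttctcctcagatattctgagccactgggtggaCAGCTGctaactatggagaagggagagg
The window held 3 matches to CANNTG, which reads the same on both strands as a pattern: CATCTG beginning 131 bases before the start, CATGTG beginning 38 bases before it, and CAGCTG at position 23 after it. CANNTG occurs in 71.6% of 27457 rat promoter windows of the same length. The palindromic E-box CACGTG, which is a special case of CANNTG, was not in the window, nor was the full cAMP response element TGACGTCA or its core TGACG on either strand. These letters occur in 6.65%, 1.91% and 22.0% of all windows.

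Aard was the member that fell. It read 4293.2 and 3685.2 on the cAMP arrays and 5238.9 and 6133.0 on the control arrays. Both cAMP arrays lay below both control arrays, and each pair differed by about as much within itself, 15.2% of the mean with cAMP and 15.7% in control. The mean was 3989 ± 430 with cAMP and 5686 ± 632 in control (SD, n = 2 arrays each), and the cAMP mean fell by 29.8% relative to control. The log2 difference was -0.51 ± 0.13 (95% interval -0.81 to -0.21), with an adjusted p of 0.0416 by limma. The adjusted p by limma was 0.178 without cAMP replicate 1, 0.383 without cAMP replicate 2 and 0.0503 without control replicate 2.

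Cst3, the cystatin C gene, had the tightest replicates of the members. It read 3152.2 and 3162.8 on the cAMP arrays and 3862.1 and 3868.5 on the control arrays. The groups did not overlap, and the arrays of a group differed by 0.336% of their mean with cAMP and by 0.166% in control. The cAMP mean of 3158 ± 7.50 lay below the control mean of 3865 ± 4.53 (SD, n = 2 arrays each), 0.817 times as high. The log2 difference of -0.29 ± 0.10 (95% interval -0.53 to -0.051) did not pass, with an adjusted p of 0.111 by limma. The standard error is larger than the spread of these arrays because limma draws each probe set's variance towards that of probe sets of like intensity. With quantile normalization the adjusted p was 0.0450 and without control replicate 1 0.0423, so the call changed in both cases while the log2 difference stayed near -0.30 and -0.29.

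**Figure D2:**
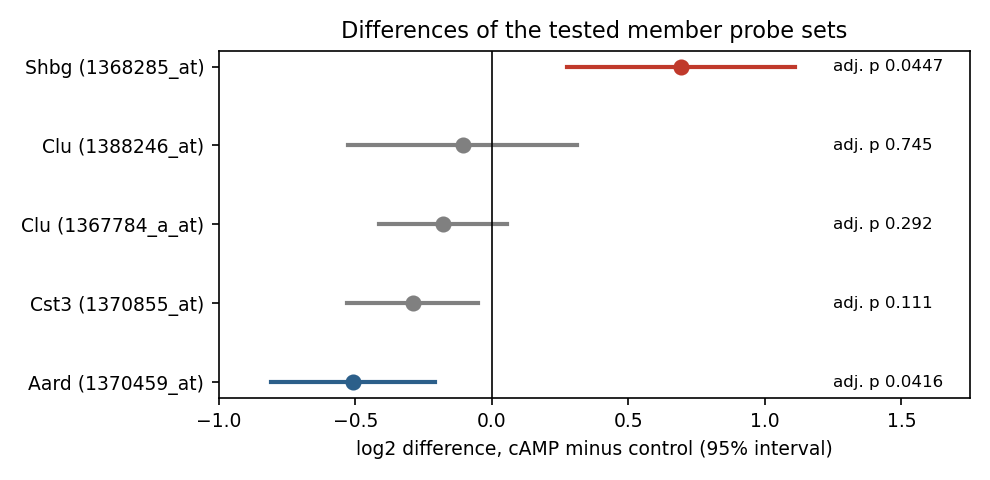
Log2 difference, cAMP minus control, of the 5 tested member probe sets (points) with 95% intervals by limma, and the adjusted p over all probe sets. Shbg (0.69) lies to the right of 0 and Aard (-0.51) to the left, both coloured as past the threshold. The Cst3 interval ends short of 0 but its adjusted p of 0.111 does not pass, and both Clu intervals include 0.

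The Cst3 start is set beside that of Shbg (RefSeq, build GRCr8, chr3:156793888-156794187, minus strand, same window, with the gene's span again reaching further upstream). Capitals mark the single E-box.
Cst3: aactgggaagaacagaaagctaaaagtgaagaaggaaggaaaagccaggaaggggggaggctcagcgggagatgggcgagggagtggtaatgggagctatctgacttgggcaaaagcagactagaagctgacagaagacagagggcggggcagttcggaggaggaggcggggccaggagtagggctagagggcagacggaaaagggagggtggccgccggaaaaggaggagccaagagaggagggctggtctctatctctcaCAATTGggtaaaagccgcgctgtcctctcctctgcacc
The window had 1 match to CANNTG, at position 13 after the start and reading CAATTG. None of the other 3 motifs matched. A match or its absence describes only these letters in this window.

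Clu, the clusterin gene, did not pass with either probe set. The brighter read 6071.5 and 6409.7 on the cAMP arrays and 6857.9 and 7277.8 on the control arrays. These groups did not overlap, with cAMP lower, and the means were 6241 ± 239 and 7068 ± 297 (SD, n = 2 arrays each). Its log2 difference was -0.18 ± 0.10 (95% interval -0.41 to 0.055, adjusted p = 0.292 by limma). The interval leaves room for a decrease of up to 0.41 and an increase of up to 0.055 on the log2 scale, and after quantile normalization the estimate had the other sign, 0.082. By mean signal this probe set ranked 15 from the top, Aard 92 and Cst3 164. The highest signals were 7398.5 and 7965.6 on the cAMP arrays and 8268.3 and 9674.6 on the control arrays. With quantile normalization Aard moved to -0.37 and Cst3 stayed at -0.30. Whether a shift of bright signals bears on these differences was not tested. The dimmer probe set read 129.9 and 115.5 on the cAMP arrays and 144.9 and 122.2 on the control arrays. Its groups overlapped, and the log2 difference was -0.11 ± 0.18 (95% interval -0.53 to 0.31, adjusted p = 0.745 by limma). Without control replicate 1 it was 0.0033.

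Rhox5 gave no usable difference. It read 21.0 and 14.0 on the cAMP arrays and 5.7 and 16.7 on the control arrays, so 1 array of each group lay at or below background and the groups overlapped. Its mean log2 value lay under the filter, set at the 40th percentile of all probe sets, a log2 value of 5.10. In the fit without the filter its log2 difference was 0.32 ± 0.27, with an adjusted p of 0.591 by limma. No change in Rhox5 was called, and how large a change could be detected at this signal was not tested. Of 10 other genes of the RHOX family only Rhox9 had a probe set named for it, which read 10.4 and 4.2 with cAMP and 14.3 and 8.4 in control, under the filter.

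The directions of the members under other settings are drawn for Shbg, Aard and Cst3. All 3 kept their sign in each of the 11 alternatives, while the calls of Shbg and Aard were lost in 6 of them each. An exact permutation test of 2 against 2 arrays cannot go below a two-sided p of 0.333. Any probe set whose groups do not overlap, 58.2% of those tested, reaches this value by design. Shbg, Aard, Cst3 and the brighter Clu probe set did so, which adds nothing to their lack of overlap.

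**Figure D3:**
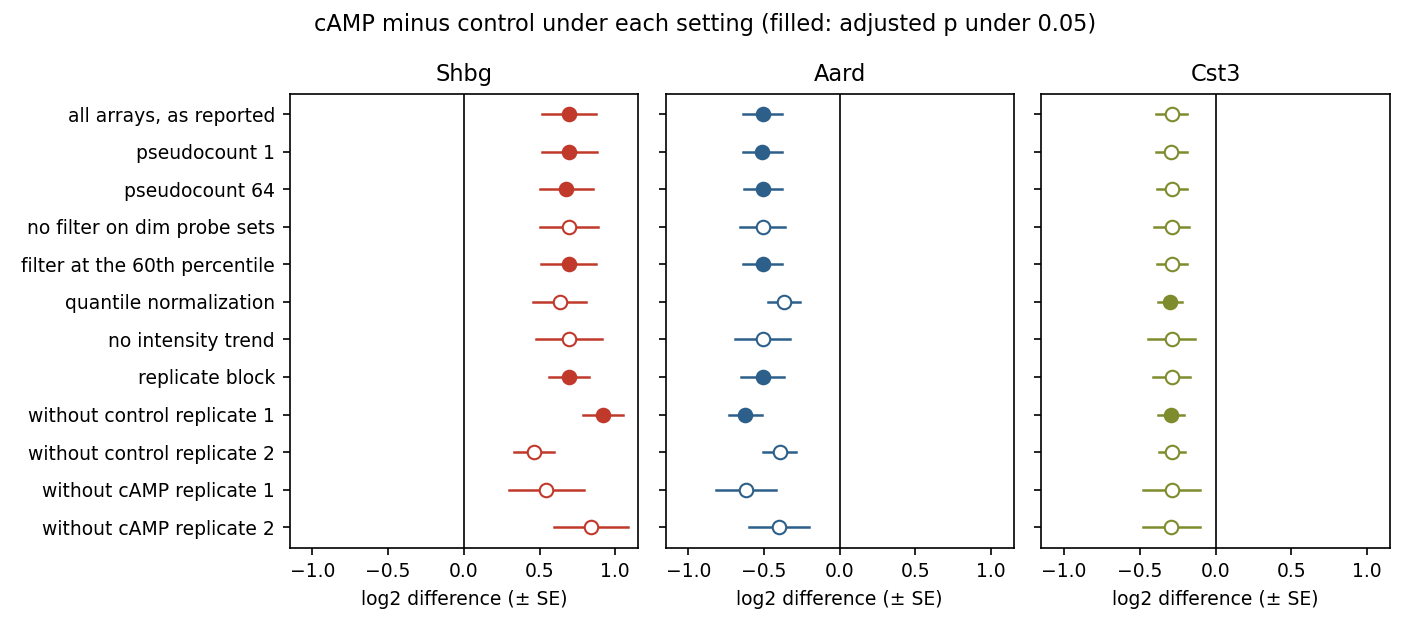
Log2 difference, cAMP minus control (± SE), of Shbg, Aard and Cst3 with all arrays and under each of 11 alternative settings. Filled points have an adjusted p under 0.05 by limma. Shbg stays between 0.47 and 0.92, Aard between -0.62 and -0.37 and Cst3 between -0.30 and -0.29, and filled and open points occur in each panel.

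Genes with the most similar profile were sought for the 4 members that were tested, by the Euclidean distance between log2 profiles over the 4 arrays, each centred on its own mean. Nearest to Shbg were the spermidine synthase gene Srm (distance 0.056) and the seryl-tRNA synthetase gene Sars1 (0.066). Srm read 252.7 and 199.3 with cAMP and 166.2 and 112.8 in control, with the array numbered 1 again the brighter in each group. Nearest to Aard were Ube3al1 (0.036) and Kntc1 (0.045), and to Cst3 Smarcad1 (0.019) and Crtc3 (0.020). For Clu only the brighter probe set was used, and nearest to it were Map4k1 (0.0053) and Tlk2 (0.0097). Map4k1 read 17.7 and 19.5 with cAMP and 22.1 and 24.5 in control, not far above the background of 14.2. None of these 8 genes passed limma, with adjusted p between 0.0720 and 0.614. With 4 arrays many profiles are alike, and the distances are a description.

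Around the FSH receptor, the genes that carry its signal or switch it off mostly did not pass, as was true of named genes in general. Of 25 genes for G proteins, arrestins, receptor kinases, adenylyl cyclases, cAMP effectors and CREB factors, 14 were tested and 9 lay under the filter, while the annotation named no probe set for the other 2. 1 was higher by limma and the other 13 did not pass, against 15.4% of the 10035 named genes that passed in either direction, 8.27% higher and 7.14% lower. The median log2 difference was 0.03, against -0.03 over all named genes. The gene that rose was Crem, a CREB-family gene that includes the repressor ICER, at 656.4 and 601.4 with cAMP and 242.1 and 140.3 in control (log2 difference 1.68 ± 0.24, adjusted p = 0.00429 by limma). Its 4 other tested probe sets were higher too, and the call was lost without cAMP replicate 1. Rapgef3, a cAMP-activated exchange factor gene, had -0.78 ± 0.23 (adjusted p = 0.0648 by limma). The stimulatory G protein gene Gnas had -0.06 ± 0.11, the arrestin genes Arrb1 and Arrb2 had 0.37 ± 0.19 and -0.07 ± 0.21, and the receptor kinase gene Grk2 had 0.24 ± 0.23. Among relatives of the receptor, the LH receptor gene Lhcgr read 7.0 and 7.3 with cAMP and 12.9 and 10.0 in control, below background throughout, as did Tshr, and only Lgr4 was tested (0.57 ± 0.21, adjusted p = 0.133 by limma).

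The Fshr start is known for an E-box that the bHLH factors USF1 and USF2 bind, and its sequence is given for that site, although the gene's own level was not analysed here. The 60 bases are from RefSeq (build GRCr8, chr6:10952248-10952307, plus strand), with the E-box in capitals.
Fshr: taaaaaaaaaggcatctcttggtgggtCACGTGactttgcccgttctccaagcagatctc
The site CACGTG begins 54 bases before the annotated start and is the only match to CANNTG in the 300 base window, which held no TGACG. Of 6 genes for factors known to act on this promoter all were tested, and 1 was lower by limma and 5 did not pass, beside 7.14% of named genes lower and 15.4% called in either direction, with a median log2 difference of -0.01. Usf1 read 623.4 and 515.8 with cAMP and 607.9 and 456.1 in control (0.10 ± 0.18), and Usf2 241.6 and 241.9 against 239.5 and 193.4 (0.16 ± 0.17). Neither passed, and the groups overlapped for Usf1. A second tested probe set had -0.11 for Usf1 and 0.56 for Usf2 (adjusted p = 0.0830 by limma), and neither of these passed. Gata4, a zinc finger factor of the gonad, read 647.6 and 649.0 with cAMP and 1290.4 and 1232.8 in control. It fell by 0.94 on the log2 scale (± 0.12, adjusted p = 0.00297 by limma), but its second tested probe set did not pass (0.12, adjusted p = 0.791 by limma). The call was lost when either cAMP array was left out, although these arrays read nearly alike, and many other probe sets lost theirs too. Nr5a1 (-0.28 ± 0.15), Gata1 (0.16 ± 0.19) and E2f1 (-0.13 ± 0.24) did not pass, nor did the second tested probe set of Nr5a1, which had the other sign (0.17).

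Cystatin C inhibits cathepsins, and genes of both groups were measured. Of 10 other cystatins 3 were tested and 3 lay under the filter, while the annotation named no probe set for 4. By limma 1 was lower, beside 7.14% of named genes lower and 15.4% called in either direction. Cst8, a cystatin of the male reproductive tract, read 24.0 and 25.1 with cAMP and 87.8 and 138.5 in control and fell by 1.64 on the log2 scale (± 0.24, adjusted p = 0.00489 by limma), a call lost without cAMP replicate 1. Cst12 (-0.18 ± 0.17) and Cstb (0.16 ± 0.12) did not pass. Of 10 cysteine cathepsins 8 were tested, of which 3 were higher and 1 lower, beside 15.4% of named genes called in either direction, with a median log2 difference of 0.40. Ctso read 621.6 and 618.2 with cAMP and 320.8 and 188.4 in control (1.28 ± 0.23, adjusted p = 0.0121 by limma), Ctsk, best known from bone resorption, had 0.89 ± 0.16 and Ctsh had 0.69 ± 0.18. Ctsc, which activates serine proteases, had -0.86 ± 0.22. All 4 cathepsin calls were lost when either cAMP array was left out, and those of Ctsh and Ctsc without control replicate 2 too. Ctsl, a protease that Sertoli cells secrete, read 5575.4 and 5527.3 with cAMP and 5750.8 and 6010.9 in control and did not pass (-0.08 ± 0.10).

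Androgen-responsive genes give the setting for Rhox5. Of 6 listed, 4 were tested, and 1 was higher by limma, beside 8.27% of named genes higher and 15.4% called in either direction. Fkbp5, a chaperone of steroid receptors, read 246.2 and 212.3 with cAMP and 78.9 and 80.2 in control (1.36 ± 0.17, adjusted p = 0.00268), a call lost without cAMP replicate 1. The protease inhibitor gene Eppin (-0.11 ± 0.24), the dopamine receptor gene Drd4 (0.29 ± 0.20) and the tubulin gene Tubb3 (0.21 ± 0.27) did not pass, and the list's median log2 difference was 0.25.

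Beside the members, 30 other secreted products of Sertoli cells were listed, of which 24 were tested and 5 lay under the filter, while the annotation named no probe set for 1. By limma 6 were higher, 8 lower and 10 did not pass, 58.3% called against 15.4% of named genes, with a median log2 difference of -0.03. This list, like the others, was chosen with earlier results of these data known, so its share cannot be read as an excess. The counts were between 3 and 8 higher and between 4 and 9 lower when 1 array was left out. The 4 with the smallest p were Igfbp3 (-4.90 ± 0.19), the inhibin alpha gene Inha (2.04 ± 0.15), the metalloprotease inhibitor gene Timp1 (2.72 ± 0.21) and the plasminogen activator gene Plat (2.60 ± 0.29), and their calls held with any 1 array left out. Igfbp3 read 16.5 and 11.9 with cAMP and 796.0 and 980.1 in control, so 1 cAMP array lay below background and the size of its change is uncertain. The following were chosen after their values were seen. Psap encodes prosaposin, also known as sulfated glycoprotein 1 of Sertoli cells, and read 4864.9 and 5285.9 with cAMP and 3606.6 and 2277.0 in control (0.82 ± 0.20, adjusted p = 0.0386 by limma). The ceruloplasmin gene Cp, a copper-carrying ferroxidase, read 234.4 and 353.2 with cAMP and 795.1 and 832.9 in control (-1.45 ± 0.20), and its 2 other tested probe sets were lower too. Gas6, a ligand of the TAM receptor kinases, had -1.05 ± 0.21, though its 2 other tested probe sets did not pass. The calls of Psap and Gas6 were lost when either cAMP array was left out, and that of Cp held with any 1 array left out. Psap also lost its call without the filter on dim signals and without the intensity trend. Serpine2, a serine protease inhibitor gene, lay at background with cAMP and was at least 3.74-fold lower than in control. Its call was lost without control replicate 1, without cAMP replicate 1 and with the filter at the 60th percentile. The filter was set anew on the arrays kept, so a lost call can also mean that a dim gene was no longer tested. Inhbb (-0.11 ± 0.17), Sparc (0.39 ± 0.12) and Timp2 (0.42 ± 0.13) did not pass.

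**Figure D4:**
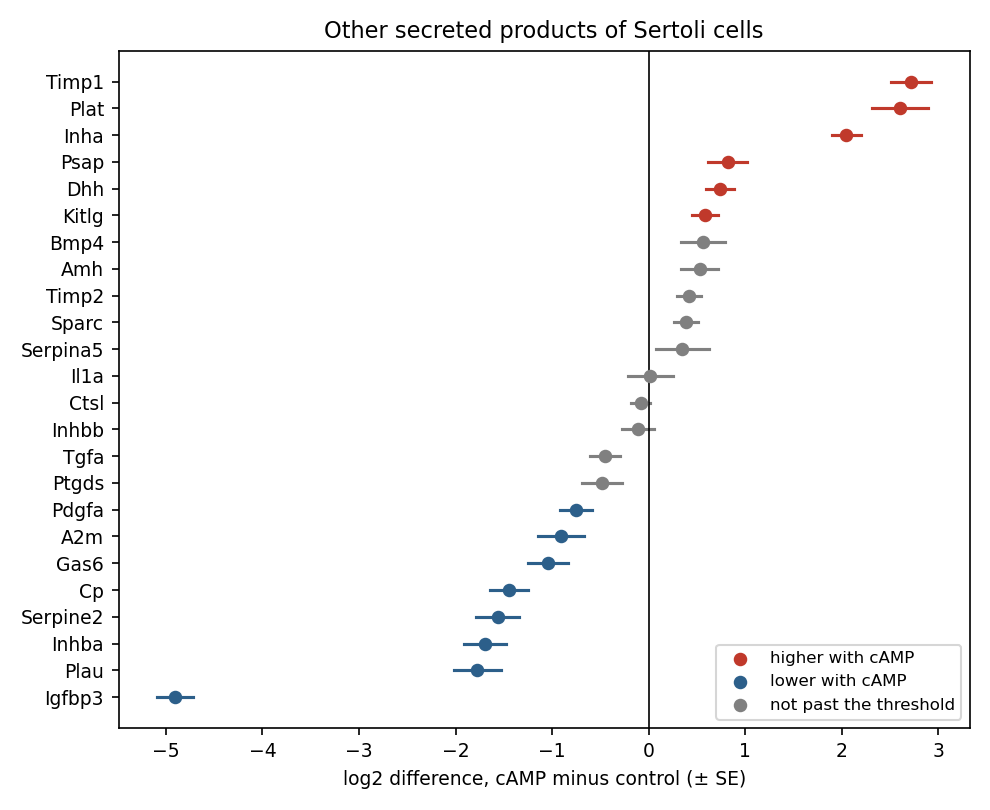
Log2 difference, cAMP minus control (± SE), of the 24 tested genes for other secreted products of Sertoli cells, ordered by size. Red points are the 6 that were higher, blue points the 8 that were lower and grey points the 10 that did not pass limma. Values run from -4.90 for Igfbp3, whose size is uncertain because its cAMP signals lay around background, to 2.72 for Timp1.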

How the data were processed

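Probe set signals of 4 arrays (2 cAMP, 2 control) were used. The deposited values are linear intensities; the submitters' processing notes name GCOS and MAS5 as the authors' tools, and the equal trimmed means show scaling before deposit. The sources used here give no versions, settings or genome build. Symbols came from the platform annotation: 20832 probe sets had 1 symbol, 436 several and 9831 none; 20764 of the first were matched to RefSeq (GRCr8), which updated symbols only. Promoter sequences were from RefSeq (GRCr8), with 3 of the 6 genes found.

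The log2(signal + 16) values of 31042 probe sets other than controls were filtered at the 40th percentile of the mean over the 4 arrays, leaving 18625. They were fitted with limma 3.58.1 in R 4.3.3 (lmFit, eBayes with intensity trend, two-sided), with Benjamini-Hochberg adjustment and a threshold of 0.05. Calls in the text ("rose", "lower" and the like) use this threshold. For a listed gene with several probe sets the brightest was used. On simulated data in which 200 of 18625 probe sets changed, 69.0% of 2-fold and 100% of 4-fold changes were recovered. The noise was normal with limma's variances, and far fewer probe sets changed than were called in the data, so recovery there may differ. Changes as small as those of the members were not simulated. Precision is limited by having 2 arrays per group.

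The members and lists were chosen with earlier results of these data known. Named were all members, up to 4 genes per list by smallest p, any gene needed for a count of 5 or fewer, and the 2 nearest profiles per member; list genes named beyond these, and markers, were chosen after their values were seen. The 11 alternatives changed the pseudocount, filter, normalization, trend, block and arrays.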

Additional observations from a re-analysis of the deposited data

How the results depend on the processing

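Under pseudocounts of 1 and 64, the filter at the 60th percentile and the replicate block, Shbg and Aard passed limma and Cst3 and Clu did not. Without the filter on dim probe sets, Shbg (0.69, adjusted p = 0.117) and Aard (-0.51, adjusted p = 0.130) no longer passed, leaving 0 higher and 0 lower members by limma (1 and 2 at an unadjusted p under 0.05), as 873 probe sets were higher and 725 lower in all. Without the intensity trend Shbg (0.69, adjusted p = 0.0991) and Aard (-0.51, adjusted p = 0.129) did not pass either, again 0 and 0 by limma (1 and 1 at an unadjusted p under 0.05). With quantile normalization Shbg (0.63, adjusted p = 0.0550) and Aard (-0.37, adjusted p = 0.0632) did not pass, Cst3 did (-0.30), giving 0 higher and 1 lower, and the brighter Clu probe set turned to 0.082. The cause was not tested.

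With 1 array left out, the lone array of its group was assumed to vary like the others. Fewer probe sets passed in all when either cAMP array was left out, and more when control replicate 1 was. Without control replicate 2 the number that passed was close to that with all arrays, yet Shbg (0.47) and Aard (-0.40) lost their calls. Shbg ranged from 0.47 to 0.92, Aard from -0.62 to -0.40, Cst3 from -0.29 to -0.29, and Clu from -0.22 to -0.14 (brighter) and from -0.22 to 0.0033 (dimmer). Member probe sets numbered 0 to 1 higher and 0 to 2 lower, and all probe sets 396 to 2467 higher, the most without control replicate 1, and 314 to 2381 lower. The listed genes, 11 higher and 11 lower in all, gave 3 to 14 higher and 4 to 11 lower, and 7 lower with the filter at the 60th percentile, where fewer genes were tested. With the replicate number as a block, Shbg had an adjusted p of 0.00961 and Aard 0.0430, and no member call changed; among listed genes Rapgef3 then passed as lower and Ctsb as higher, 12 higher and 12 lower in all. Deviations of same-numbered arrays correlated at 0.163, and with 2 numbers that the labels do not tie to a batch, pairing is not established.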
